A study of Mus musculus with 10 samples.

Results

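H3K27Ac peaks of formalin-fixed, paraffin-embedded (FFPE) mouse liver were compared with those of fresh frozen mouse liver. The members are all peaks on chromosomes 1 to 19 of 3 peak lists, 162517 of the 344963 peaks in the 9 lists of the series. The fresh frozen list held 47238 of them, and the first and second FFPE libraries held 59431 and 55848. The fresh frozen tissue was normal liver that was sectioned, fixed briefly with formaldehyde, sonicated and immunoprecipitated. The FFPE tissue was also normal liver, and it was treated by FiTAc-seq, in which deparaffinized sections are heated overnight in an SDS detergent buffer before sonication. Both FFPE libraries had 65 °C and 5 min of sonication, the condition that the submitters called optimal and made in replicate. All 3 libraries used the same H3K27Ac antibody lot. The submitters called the fresh frozen liver matched, without saying whether that means the same animal, and gave no strain, sex or age. Nothing says that the FFPE libraries came from separate animals, so the spread of the pair may be technical.

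Acetylation of lysine 27 on histone H3 (H3K27Ac) is laid down by the acetyltransferases p300 and CBP at active promoters and enhancers. In liver it covers the regulatory regions of genes that hepatocytes, the main cells of the organ, keep active, where dense groups of acetylated sites often surround highly active genes. Paraffin embedding preserves tissue for histology, and the long formalin fixation that goes with it makes chromatin hard to solubilize. Gene positions on the mouse build of these lists, mm9, were not used here. Each locus is therefore given by its mm9 coordinates without a gene name, and liver marker genes were not examined.

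Each peak carries 1 value, read as the −log10 of the q-value from the authors' peak calling, and is ranked by it within its own list, with rank 1 the highest. Medians were 9.81 in fresh frozen liver and 7.54 and 7.44 in the FFPE pair. Fresh frozen liver had 23937 distinct values, whereas the pair had 973 and 842, so FFPE ranks contain many ties, and tied peaks share the lowest rank of the tie. Sequencing depth is unknown. With 1 fresh frozen library there is no test between the tissues. The ranges in brackets after shares are Wilson 95% intervals. They take in counting error alone, and neighbouring peaks are not independent.

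Most fresh frozen H3K27Ac sites were shared with FFPE liver. A peak counted as met when a peak of the other list overlapped it by at least 1 bp. Of the 47238 fresh frozen peaks, 31429 were met in both FFPE libraries, or 66.5% (66.1 to 67.0), and 10693 in neither, or 22.6% (22.3 to 23.0). A further 3218 were met in the first library only and 1898 in the second only. The libraries taken singly met 73.3% and 70.6%, a mean of 71.9% ± 1.98 (SD, n = 2).

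Unshared fresh frozen sites were mostly narrow and low in the list. The median width was 431 bp for shared peaks and 230 bp for peaks met in neither library, and the median −log10 q-values were 13.7 and 6.04. Among peaks of ranks 101 to 1000, 99.2% were shared and 0.778% were met in neither. From rank 30001 on, 42.4% were shared and 41.0% met in neither. The 100 highest stood out from this order, as 6 of them had no peak in either library of the FFPE pair.

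**Figure D1:**
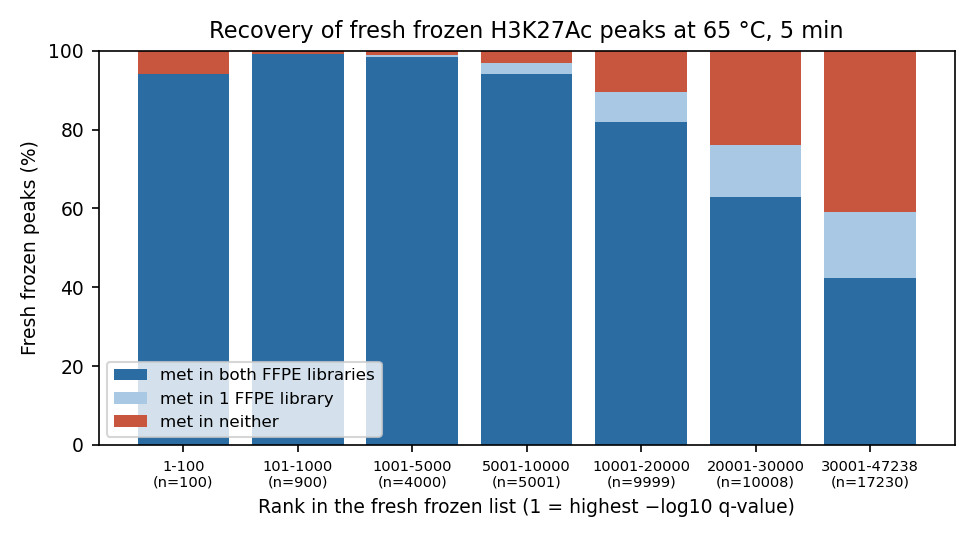
Share of fresh frozen peaks (y axis, %) met in both, in 1 or in neither FFPE library, by rank in the fresh frozen list (x axis, with the number of peaks in each bin). The part met in neither grows from 0.778% at ranks 101 to 1000 to 41.0% from rank 30001 on, and is 6% among the 100 highest.

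Within each range of ranks as well, wider fresh frozen peaks were less often met in neither library. The 1 bp rule makes a wider peak easier to meet, and its part in this difference was not tested. Between ranks 10001 and 20000, 17.5% (15.6 to 19.5) of peaks of 201 to 300 bp were met in neither library, against 2.43% (1.33 to 4.42) of peaks wider than 1000 bp. From rank 30001 on, the shares were 39.3% (38.1 to 40.6) for 201 to 300 bp and 20.5% (17.2 to 24.3) for 501 to 1000 bp. Wider peaks had the lower share in both ranges. None of the 229 peaks wider than 1000 bp among the 1000 highest went unmet, which allows a share of up to 1.65%.

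The order of sites by −log10 q-value differed more between the fresh frozen list and each FFPE list than within the FFPE pair. Over the 31429 shared fresh frozen peaks, each set against the highest FFPE peak that overlapped it, Spearman's rho was 0.40 with the first library and 0.38 with the second. Between the FFPE libraries it was 0.89. These are descriptions across peaks, which are not replicates, and several fresh frozen peaks can share 1 FFPE peak. Tissue preparation, protocol and peak calling cannot be told apart in this contrast. Of the 100 highest fresh frozen peaks, 31 overlapped a peak among the 1000 highest of both FFPE libraries. In the other direction, 31 and 29 of the 100 highest peaks of the first and second FFPE library overlapped one of the 1000 highest fresh frozen peaks.

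**Figure D2:**
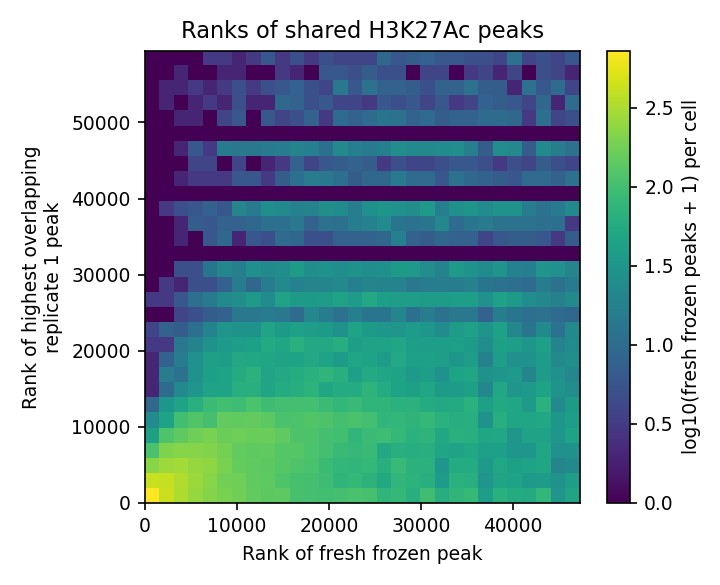
Rank of each shared fresh frozen peak (x axis) against the rank of the highest peak of the first FFPE library that overlaps it (y axis), with colour for the number of fresh frozen peaks per cell on a log10 scale. Peaks gather where both ranks are high in the lists and spread widely elsewhere (rho 0.40), and the empty bands are ranks skipped by tied values.

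The sites at the head of the lists differed in form. The following were singled out after their values were seen. The highest peak of the first FFPE library, chr7:38967744-38971966, was 4223 bp wide with a −log10 q-value of 214, and it was the second highest in the other FFPE library at 162. It covered 2 fresh frozen peaks, of which the higher ranked 2533 and was 1248 bp wide. The FFPE peaks were thus several times wider than the fresh frozen ones at the same place. The peak chr11:86390899-86403036 ranked 4 in both libraries, was 12138 bp wide in the first and met 5 fresh frozen peaks, the highest at rank 7906. The peak chr8:96909004-96915580 was 6577 bp wide, ranked 4 and 5, and met 4 fresh frozen peaks, the highest at rank 2591.

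The 4 highest fresh frozen peaks were narrow, and their ranks in the pair varied widely. The highest, chr9:35112716-35113188, was 473 bp wide with a −log10 q-value of 310, and had ranks of 9152 and 6766 in the pair. It was also the highest peak of the H3K4me2 list, which was made from FFPE liver with another antibody and proteinase K (FiT-seq). The third, chr6:103598989-103599346, was 358 bp wide and ranked 26052 and 22916 in the pair and 2 for H3K4me2. Both sites were thus high for fresh frozen H3K27Ac and for H3K4me2 and lower in the pair. Their H3K4me2 peaks were 473 and 360 bp wide, close to the fresh frozen widths. The chr9 site also ranked 2 of the 55 peaks at 80 °C and 40 min. Whether the signal at such narrow sites depended on the antibody was not tested. The second and the fourth, chr1:197067691-197068169 and chr19:61275499-61275853, were 479 and 355 bp wide and stood higher in the pair, with ranks of 939 and 365 and of 1858 and 1103. They ranked 4 and 9 for H3K4me2.

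Sites high in all 3 lists were found by the mean rank over the lists. The first was chr2:128793091-128793803, with −log10 q-values of 106 in fresh frozen liver and 148 and 118 in the pair, not on a common scale. It ranked 41, 27 and 29, and was 713, 2229 and 2272 bp wide in the 3 lists. The second, chr1:180335818-180337031, ranked 59, 26 and 14, with widths of 1214, 2298 and 2213 bp. At both sites the FFPE peaks were wider. That the ranks were near the head of all 3 lists follows from the choice by mean rank. The third, chr4:33334893-33335480, ranked 37, 28 and 42, and was 588 bp wide in fresh frozen liver against 2902 and 3804 bp in the pair.

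The other 5 sites of this group were chr2:156004989-156005938, chr18:6490110-6490890, chr19:3767489-3768780, chr11:59622788-59624187 and chr11:100800063-100800748. Their fresh frozen ranks were 78, 84, 30, 58 and 126 in that order. Their ranks were 12, 19, 17, 73 and 80 in the first FFPE library and 23, 55, 112, 94 and 33 in the second. All 8 sites had a peak in the 3 other long FiTAc-seq lists (50 °C with 5 min, 50 °C with 40 min and 65 °C with 40 min), which took no part in their choice. In that order, these lists met 98.1%, 98.9% and 99.6% of all shared peaks among the 1000 highest fresh frozen peaks. Being met there was thus not particular to the 8 sites. Only the chr1:180335818 and chr19:3767489 sites met an H3K4me2 peak, at ranks 7242 and 5549. The other 6 met none, whereas the 4 highest fresh frozen peaks all met one. Of all shared peaks among the 1000 highest fresh frozen peaks, 45.3% met an H3K4me2 peak.

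FFPE peaks tended to enclose fresh frozen ones. In the first library, 23831 of the 34647 fresh frozen peaks that were met lay wholly inside an FFPE peak, or 68.8%, and in the second 21843 of 33327, or 65.5%. Where a single peak met a single peak, the FFPE peak reached past the fresh frozen one by a median of 91 bp on the left and 90 bp on the right in the first library, and by 74 bp on each side in the second. The extension was thus symmetrical. The median ratio of widths for these pairs was 1.45 over 16891 pairs and 1.37 over 17005. How peaks were called in each library is not given, so calling and tissue cannot be told apart in these widths.

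Some FFPE peaks joined groups of fresh frozen peaks into 1 interval. Of the FFPE peaks that met fresh frozen ones, 27.9% in the first library and 25.7% in the second met at least 2. The gaps between fresh frozen peaks that were bridged had a median of 235 bp (quartiles 157 and 349) and 229 bp. By the number of fresh frozen peaks met, the leading sites of the first library were chr2:27447657-27457141 and chr7:29156301-29171045, with 9 each, followed by chr5:143574609-143585952, chr7:106303960-106321525 and chr15:58815293-58840627, with 8 each.

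None of the fresh frozen peaks joined at these 5 sites stood above rank 11686, whereas 3 of the FFPE peaks over them ranked 108, 132 and 185. The 14745 bp peak on chromosome 7 ranked 108, its fresh frozen peaks ranked between 13705 and 37319 and together covered 3262 bp, and the second library had 5 peaks there, the highest at rank 40. The chromosome 15 peak was the widest of its list, at 25335 bp, and ranked 185. Its 8 fresh frozen peaks ranked from 11686 to 45783 and covered 3510 bp. The second library split this interval into 3 peaks, the widest of 13352 bp. That a single peak of the first library met several fresh frozen peaks at both loci follows from how the sites were chosen. The second library, which took no part in that choice, had several peaks at each locus, the widest of 10564 bp on chromosome 7 and 13352 bp on chromosome 15. The chr2:27447657 interval was a single peak in both FFPE libraries, of 9485 and 9562 bp, with ranks of 2191 and 834.

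FFPE-only peaks were numerous but low. A peak of the first library that overlapped a peak of the second was called replicated, which gave 40101 peaks. Of these, 17083 met no fresh frozen peak, or 42.6% (42.1 to 43.1). Counted in the second library, 19201 of 43038 did so, or 44.6% (44.1 to 45.1), a mean of 43.6% ± 1.42 (SD, n = 2). The FFPE-only peaks of the first library had a median width of 329 bp, against 988 bp for the replicated peaks that met a fresh frozen peak. With peaks merged within 500 bp the share was 23.0%. For 2883 of the 17083, or 16.9% (16.3 to 17.4), the overlapping peak of the second library itself reached a fresh frozen peak, and for 14200 it did not.

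The share without a fresh frozen peak depended on rank in the FFPE list. Among the 1022 peaks that ranked 1 to 1000 in the first library with their ties, all of them replicated, 1 was FFPE-only, and in the second library 1 of 1000. Among the replicated peaks of ranks 10001 to 20000 it was 30.8% and 35.0%, and of ranks 30001 to 40000 70.7% and 68.1%. Unshared sites were therefore rare at the head of the FFPE lists, as they were in the fresh frozen list below its first 100.

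FFPE-only peaks were often close to a fresh frozen peak, to a degree that depended on which peaks were used. The median distance between edges was 1495 bp, and 81.3% (80.7 to 81.9) of the 17083 were within 5 kb of a fresh frozen peak. It was 50.0% with the 20000 highest peaks of each list and 64.5% with peaks merged within 500 bp. For the 16122 peaks of the first FFPE library that met neither the second library nor a fresh frozen peak, the share was 73.9% (73.2 to 74.5). A fresh frozen peak stood within 5 kb on both sides of 3219 FFPE-only peaks and on 1 side of 10674. Single-sided flanks were thus the most common setting. A separate set of 457 peaks, or 2.68%, was more than 50 kb from any fresh frozen peak.

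Other lists, which took no part in the choice, held these classes to different degrees. With 40 min of sonication, 61.5% (60.7 to 62.2) of the FFPE-only peaks were met at 50 °C and 58.3% (57.5 to 59.0) at 65 °C. Of the replicated peaks with a fresh frozen peak, the same lists met 93.4% and 92.5%. H3K4me2 met 1.90% (1.71 to 2.12) of the former and 30.3% (29.7 to 30.9) of the latter. FFPE-only peaks were thus less often covered in each of these lists. They were also narrower and of lower rank, and the part of width in this difference was not tested. Of the 457 distant peaks, 27.4% and 31.5% were met in these lists of 40 min and 9.63% for H3K4me2. For peaks at most 500 bp from a fresh frozen peak the shares were 66.0%, 63.2% and 3.58%.

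**Figure D3:**
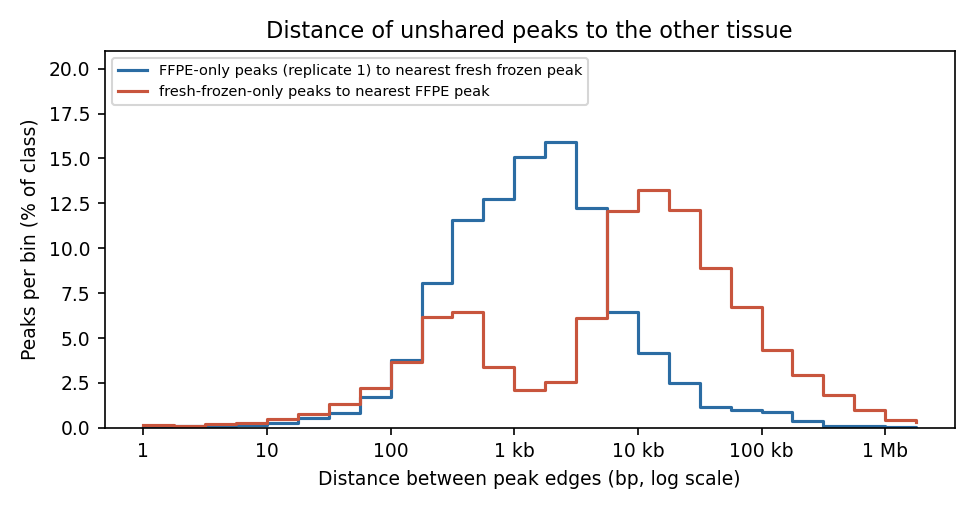
Distance between peak edges (x axis, bp, log scale) from FFPE-only peaks of the first library to the nearest fresh frozen peak, and from fresh-frozen-only peaks to the nearest peak of either FFPE library (y axis, % of the class per bin). FFPE-only peaks form a single hump (median 1495 bp), whereas fresh-frozen-only peaks form one below 1 kb and a larger one near 10 kb (median 10900 bp).

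The 10 highest FFPE-only sites by mean rank over the pair included 2 kinds. The narrow kind comprised chr17:4626111-4626653 and chr13:51298081-51298426, of 543 and 346 bp, at 14210 and 48379 bp from a fresh frozen peak. The first of these ranked 1633 and 38 in the pair, 35 for H3K4me2 and 1 of 112 in the H3K27Ac list of the proteinase K protocol. The second ranked 1629 and 2452 in the pair and 9925 for H3K4me2. Both had widths in the first library close to those in the second, 590 and 327 bp.

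The other 8 were 907 to 5222 bp wide in the first library, and none of them met a peak of H3K4me2 or of the proteinase K H3K27Ac list. Of these, 5 stood beside fresh frozen peaks. The site chr2:172978428-172982001 was 3574 bp wide, had ranks of 937 and 1796, and lay 534 bp from a fresh frozen peak, with 14 fresh frozen peaks within 50 kb. The site chr8:112514304-112517190, of 2887 bp, ranked 2071 and 2518 and had 11 within 50 kb. The site chr7:38978415-38982164, of 3750 bp, ranked 3538 and 1225 and had 9 within 50 kb. These are broad FFPE peaks inside neighbourhoods that are acetylated in fresh frozen liver too. The sites chr1:60623771-60624677 and chr7:77508200-77513421 lay 248 and 1709 bp from a fresh frozen peak, with ranks of 3860 and 274 for the first and 4329 and 477 for the second. In the second library the peaks there were 5358 and 12493 bp wide and did reach a fresh frozen peak, so these 2 sites were FFPE-only in the first library's intervals alone.

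The other 3 of the 8 belonged to long intervals with no fresh frozen peak. They were chr5:146229090-146230616, chr5:146615219-146617543 and chr7:26958475-26960568, with ranks of 2918 and 1254, 1319 and 2907, and 1911 and 2108. The sites on chromosome 5 had no fresh frozen peak within 50 kb and lay 150446 and 72996 bp from the nearest. The chromosome 7 site was near the edge of its interval, 4337 bp from a fresh frozen peak, the only one within 50 kb. Both chromosome 5 sites belonged to the same interval, which is described next.

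Replicated FFPE-only peaks were grouped into stretches, each being a run of them between 2 neighbouring fresh frozen peaks. There were 9023 stretches, of which 5245 held 1 peak, 528 held at least 5 and 49 at least 10. The stretches described were the longest by number of peaks, chosen after their values were seen. The longest, chr5:146176320-146690329, held 57 replicated FFPE-only peaks in 514 kb, inside an interval of 612 kb with no fresh frozen peak. The first FFPE library had 76 peaks there and the second 61, covering 41213 and 37079 bp, the highest at ranks 1319 and 1254. At 50 °C there were 19 peaks with 5 min of sonication and 20 with 40 min, covering 5876 and 7915 bp, and at 65 °C with 40 min there were 28, covering 9334 bp. Acetylation over this stretch was thus listed in all 5 long FiTAc-seq lists, most densely in the pair, from which the stretch was chosen. The lack of a fresh frozen peak follows from how stretches were defined. H3K4me2 had 0 peaks there. With peaks merged within 500 bp, 23 FFPE-only peaks were counted.

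**Figure D4:**
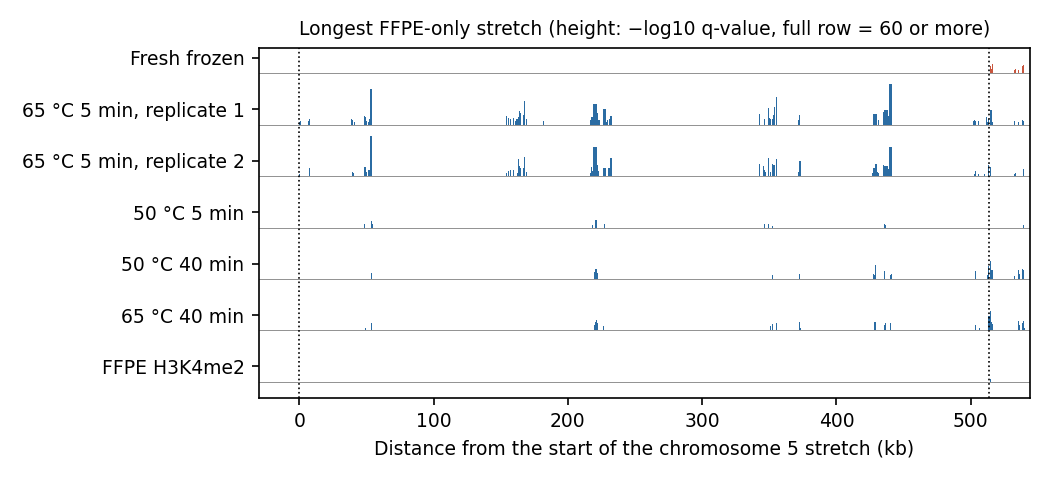
Peaks of 7 lists along the chromosome 5 stretch of 57 FFPE-only peaks with 30 kb on either side (x axis, kb from its start, dotted lines at its ends), with bar height for −log10 q-value up to 60 and a minimum drawn width of 0.6 kb. The fresh frozen row has bars only beyond the right end, whereas both rows at 65 °C and 5 min hold groups of bars at the same positions; heights are not on a common scale between lists.

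The next stretches differed in density. On chromosome 2, 42 FFPE-only peaks lay in 64.2 kb at chr2:27540645-27604885 and covered 33084 bp. The pair had 57 and 60 peaks there. At 50 °C there were 40 with 5 min and 70 with 40 min, and at 65 °C with 40 min there were 67. This stretch was thus covered densely in each long FiTAc-seq list, with its highest FFPE peaks at ranks 6363 and 5544. With peaks merged within 500 bp it held 13 FFPE-only peaks. The third stretch, chr7:26954377-27138540, held 26 FFPE-only peaks in 184 kb, inside 614 kb without a fresh frozen peak, and 7 with peaks merged within 500 bp. The pair had 34 and 31 peaks in it. There were 5 and 19 at 50 °C with 5 and 40 min, and 23 at 65 °C with 40 min.

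One of the 8 stretches with most peaks was found at 5 min of sonication only. At chr6:52161858-52184567, a 22.7 kb stretch, the pair had 19 and 21 peaks covering 12805 and 14506 bp, the highest at ranks 11083 and 11812, and the 50 °C, 5 min list had 7. Both lists of 40 min had 0 peaks there, as did H3K4me2 and, by the definition of a stretch, fresh frozen liver. The difference between sonication times was not tested, since 1 library was made at each of the other conditions. The stretches chr19:5819473-5839634, chr5:77795004-77834965, chr7:29721405-29742429 and chr4:45505851-45525822 held 16 to 19 FFPE-only peaks, and each had at least 8 peaks in every one of the 3 other long FiTAc-seq lists.

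The FFPE-only peaks farthest from fresh frozen peaks were taken from the 1419 that ranked in the highest 25% of the first library. The 5 sites were chr11:25000045-25000298, chr15:23452703-23452911, chr6:132413670-132413911, chr2:16604616-16604867 and chr2:58009735-58011359. Their distances from the nearest fresh frozen peak were 738460, 730378, 640692, 509578 and 376714 bp. The first 4 were narrow, between 209 and 254 bp, and 3 of these, on chromosomes 11, 6 and 2, ranked 85, 56 and 76 for H3K4me2 and 7, 11 and 29 in the proteinase K H3K27Ac list. These 3 were thus listed with both antibodies in proteinase K libraries, whose lists held 11616 H3K4me2 and 112 H3K27Ac peaks. Their peaks were 281, 253 and 253 bp wide for H3K4me2 and 289, 253 and 253 bp for H3K27Ac there. Whether this signal depended on the antibody was not tested. The chromosome 15 site was listed in the pair alone, at ranks 14817 and 12075. The last was 1625 bp wide in the first library and 555 bp in the second, and had no H3K4me2 peak.

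Fresh-frozen-only peaks were more isolated than shared ones. They had a median of 4 other fresh frozen peaks within 50 kb, against 7 for shared peaks, and 8.98% against 2.55% had none. They were also narrower and lower in the list than shared peaks, and this was not adjusted for. Their median distance from the nearest peak of the FFPE pair was 10900 bp, and 2220 of the 10693, or 20.8%, lay within 500 bp of one. Within 5 kb the share was 33.8% (32.9 to 34.7) and within 10 kb 48.1%, and 19.4% lay more than 50 kb away. With 40 min of sonication, 20.6% (19.8 to 21.4) of fresh-frozen-only peaks were met at 50 °C and 18.4% (17.7 to 19.1) at 65 °C, and with 5 min at 50 °C 1.18% (0.991 to 1.40) were. Of the shared fresh frozen peaks these lists met 94.5%, 93.9% and 64.6%. Any of the 3 met 28.1% (27.3 to 29.0) of the fresh-frozen-only peaks.

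The highest fresh-frozen-only sites were nearly all met by H3K4me2 peaks. Among the 1000 highest fresh frozen peaks, 13 were met in neither FFPE library, and 12 of these met an H3K4me2 peak, or 92.3% (66.7 to 98.6). For shared peaks of the same ranks the share was 45.3% (42.2 to 48.4). At ranks 1001 to 10000 the order was the reverse, with 24.2% (18.7 to 30.7) of fresh-frozen-only and 40.7% (39.6 to 41.7) of shared peaks. At ranks over 10000 it was likewise the reverse, with 4.33% (3.96 to 4.74) of fresh-frozen-only and 12.8% (12.3 to 13.2) of shared peaks. The higher share among fresh-frozen-only peaks thus rested on the 13 peaks within the first 1000. Whether the signal at these 13 depended on the antibody was not tested. The series includes an FFPE input sample, but it has no peak list to set beside these sites.

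The 10 highest of these sites, by fresh frozen rank, were chr12:3109899-3110174, chr4:70039066-70039390, chr12:68160143-68160909, chr9:24346412-24346670, chr15:74916577-74917502, chr9:3015197-3015442, chr12:75904864-75905578, chr9:3032299-3032571, chr13:77578087-77578395 and chr2:98503908-98504243. The −log10 q-value was 162 at the first and 75.4 at the last. They ranked 5, 6, 14, 16, 85, 89, 106, 177, 345 and 351 in fresh frozen liver and 7, 11, 12, 18, 17, 25, 19, 33, 24 and 40 for H3K4me2. Widths were 246 to 926 bp, with 7 sites of at most 336 bp and 3 of 715, 767 and 926 bp, and at chr4:70039066 the peak was 325 bp in both lists. None of the 10 met a peak at 50 °C with either sonication time. The chr4:70039066 and chr2:98503908 sites had peaks at 65 °C and 40 min, at ranks 20545 and 19821, and at 80 °C and 40 min, at ranks 11 and 6 of 55. The proteinase K H3K27Ac list, of 112 peaks, met 6 of the 10. Of all 47238 fresh frozen peaks it met 39, or 0.0826%.

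Fresh-frozen-only peaks also formed stretches, here runs with no peak of either FFPE library between them, named after their values were seen. There were 6539, of which 4260 held 1 peak, 224 at least 5 and 11 at least 10. The longest, chr14:66285255-66408633, held 19 fresh frozen peaks in 123 kb covering 8853 bp, the highest at rank 5085. With 40 min of sonication there were 5 peaks at 50 °C and 4 at 65 °C, and with 5 min at 50 °C and for H3K4me2 there were 0. The second, chr1:184492556-184754862, held 18 in 262 kb, the highest at rank 5236, with 1 and 3 peaks in the lists of 40 min and 1 H3K4me2 peak. The third, chr11:112922525-113427011, held 16 in 504 kb, with 2 peaks in each list of 40 min and 2 H3K4me2 peaks, and 10 when only values of at least 5 were used. All 3 stretches thus had few or no peaks in the FFPE lists outside the pair. That the pair had none follows from how these stretches were defined.

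The classes were spread over all 19 chromosomes. The share of fresh frozen peaks met in neither library ran from 18.7% on chromosome 11 to 26.9% (25.1 to 28.7) on chromosome 3. The share of replicated FFPE peaks without a fresh frozen peak, counted in the first library, ran from 38.4% on chromosomes 3 and 13 to 46.3% (44.6 to 48.0) on chromosome 11. Counted in the second library, it ran from 39.2% on chromosome 13 to 48.1% on chromosome 4, with 40.5% on chromosome 3 and 46.9% on chromosome 11. Which chromosomes were at the ends thus depended on the library, while chromosomes 3 and 13 were the 2 lowest in both. Over the 19 chromosomes, Spearman's rho between the fresh-frozen-only share and the FFPE-only share of the first library was -0.43. Between the fresh-frozen-only share and the median number of fresh frozen peaks within 50 kb it was -0.83. Both are descriptions, since the chromosomes come from the same libraries and the shares have peaks in common.

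**Figure D5:**
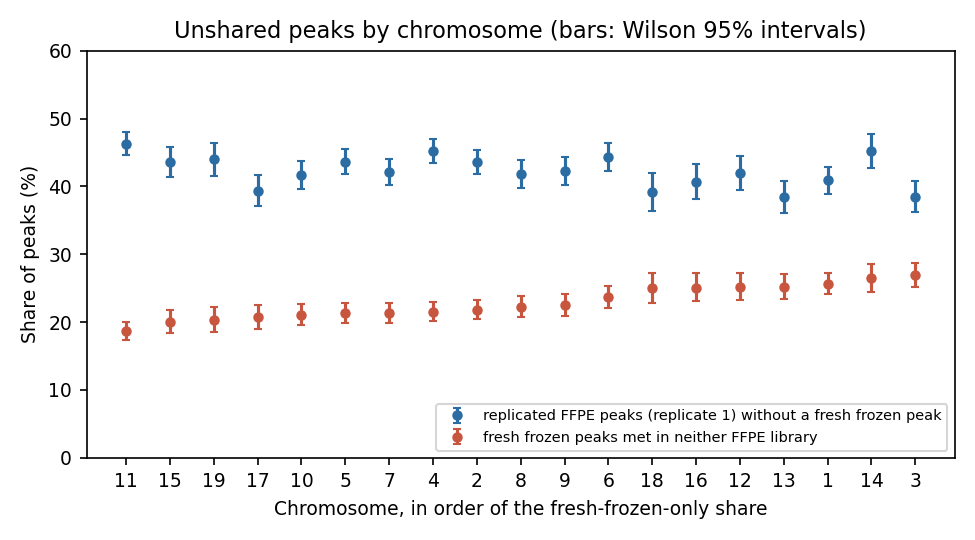
Share of peaks (y axis, %) by chromosome (x axis, in order of the fresh-frozen-only share), for fresh frozen peaks met in neither FFPE library and for replicated peaks of the first FFPE library without a fresh frozen peak, with Wilson 95% intervals. The former rises from 18.7% on chromosome 11 to 26.9% on chromosome 3, and the latter lies between 38.4% and 46.3%.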

How the data were processed

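The submitters' processing notes name BWA, MACS2 and mm9. Their versions, thresholds, controls and calling settings are not given in the sources used here. The authors deposited 1 list per library, without a header, with a value per peak taken to be a −log10 q-value, since the fresh frozen list has a minimum of 2.00. It was used to rank peaks within a list only. Peaks on chromosomes 1 to 19 were kept, which left out 1012, 813 and 797 peaks of the fresh frozen and FFPE lists. Starts are 1-based. Peaks were met at an overlap of at least 1 bp. Distances run between peak edges, and peaks within 50 kb were counted between midpoints.

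No mm9 genome or annotation was used, so the planned gene loci, promoters and markers were not run and no sequence is shown. Depth is unknown. Named sites were the 8 shared by mean rank, the 10 highest unshared of each kind, the 5 most distant FFPE-only and the 5 meeting most fresh frozen peaks, other sites being marked in the text. Members and lists were chosen with earlier results of these data known. The overlap step was tested on simulated data of 5000 peaks, where a made share of 60% came back as 60%. Tables were handled with pandas 2.3.3 and numpy 2.4.6 in Python 3.11.15, intervals came from scipy 1.17.1 and plots from matplotlib 3.10.9.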

Additional observations from a re-analysis of the deposited data

Results flagged for a closer look

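Peaks outside chromosomes 1 to 19 took no part in the comparison. Fresh frozen liver had 73 peaks on chromosome Y, where each FFPE library of the pair had 0. Outside the pair, the FFPE list at 80 °C and 40 min had 9 there and the FFPE H3K4me2 list 1. The proteinase K H3K27Ac list and the 3 other long FiTAc-seq lists had 0. On the mitochondrial genome fresh frozen liver had 11 peaks and the second FFPE library 13, whereas the first had 0. The sexes of the animals are not given in the labels.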

How the results depend on the processing

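The 4 shares were recomputed under other settings and set against the SD of the pair. With values of at least 5, or peaks merged within 500 bp, the shares of fresh frozen peaks met in both libraries and in neither moved by less than this SD. An overlap of 50% of the shorter peak gave 62.6% and 25.1%, the midpoint within the other peak 59.6% and 27.1%, and the 20000 highest peaks of each list 73.3% and 17.4%. The share of replicated FFPE peaks without a fresh frozen peak was 37.9% with values of at least 5, 23.0% after merging, 40.6% with the 50% overlap, 53.2% with the midpoint, 30.0% in the 20000 highest and 44.6% counted in the second library. The share of FFPE-only peaks within 5 kb of a fresh frozen peak was, in turn, 76.3%, 64.5%, 82.1%, 87.2%, 50.0% and 82.9%. Leaving out either library, so that no replication was asked for, gave 70.6% to 73.3% met, 26.7% to 29.4% unmet, 53.8% to 55.9% of FFPE peaks without a fresh frozen peak, and 77.7% to 79.2% within 5 kb. The cause of these shifts was not tested.

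Counting in the second library, the check of its overlapping peaks and the counts in stretches were chosen after seeing the data. No paired analysis was possible because fresh frozen liver has 1 library, and only the 65 °C, 5 min condition carries replicate numbers. The alternatives for promoter windows and gene windows were not run, as no gene positions on mm9 were used. Depth is unknown, so a site without a peak in a list is not shown to lack the mark. The reason for its absence from the list was not tested.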

Other observations

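Of the peaks found in the first FFPE library alone, 16122 met no fresh frozen peak, and these had a median width of 199 bp. With 40 min of sonication, 24.2% (23.5 to 24.8) of them were met at 50 °C and 21.6% at 65 °C, and any of the 3 other long FiTAc-seq lists met 36.8% (36.1 to 37.5). For the replicated FFPE-only peaks the last share was 77.0% (76.3 to 77.6). H3K4me2 met 1.12% (0.966 to 1.29) of the former and 1.90% (1.71 to 2.12) of the latter. Replicated FFPE-only peaks were thus listed more often in each of these lists. They were wider, with a median of 329 bp, and this was not adjusted for.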
